A study of Mus musculus with 18 samples.

Results

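The comparison described here set CD8+ T cells that had been stimulated with peptide every day against CD8+ T cells of the same strain that had met the peptide once, both without drug. Its members were the 9 libraries of the series that received the solvent DMSO alone, 4 of repeat peptide and 5 of single peptide, out of 18 libraries in all, the other 9 having received ibrutinib at 1 µM. All libraries came from purified CD8+ T cells of OT-1 mice, whose transgenic T cell receptor (TCR) recognises the ovalbumin peptide OVA(257-264). Repeat peptide cells were given 10 ng/ml peptide daily for 5 days in medium with IL-15 and IL-7, and single peptide cells were exposed to it for 48 h, washed and cultured on without it. DMSO was added from day 5 and RNA was taken on day 8. By the study's methods the peptide stayed in the medium of ibrutinib-treated repeat peptide cells until harvest. The study's results add that, unless washed out, stimulation by peptide lasts in these cultures for the whole culture. A response to antigen still present and the effect of the earlier stimulations therefore cannot be told apart. Every cell carried the same receptor and none met a tumour or a virus, which limits both groups as models of exhaustion in tissue, and animal age and sex were not given in the sources used here.

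The libraries were named by the text of their genotype tag, which gave 4 experiments with both arms (A, "INHB-1 left over"; B, "btk KO-6"; C, "BTK KO-1"; D, "BTK KO-3") and 1 with a single peptide library alone (F, "PKC igoni-2"). Those tags name a btk knockout for B to D, while the strain tag of every library reads wild type. Read as the name of the experiment in which the wild-type cells were grown, the tag put 1 library of each arm in each of A to D. Btk itself was at the edge of detection in either case, at 13, 10, 27 and 8 counts in repeat peptide libraries A to D and at 0 in all 5 single peptide libraries, so its counts could not check the tag.

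T cell exhaustion is a state that CD8+ T cells enter when antigen persists. Such cells keep several inhibitory receptors on their surface, express the transcription factor TOX together with NR4A and IRF4 family members that act downstream of the TCR, lose the TCF1-dependent programme of naive and memory cells, and make less of some cytokines. Inhibitory receptors bind ligands on neighbouring cells and recruit phosphatases or compete with costimulatory receptors, which damps the signal that runs from the TCR through LCK, ZAP70, LAT and PLCγ1 to NFAT, AP-1 and NF-κB. Acute stimulation instead gives cells that divide, acquire granzymes and, once antigen is gone, move back toward a resting state.

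Depth was similar in both groups, with 23445922 to 37951343 expected counts in a library (median 26669644). Cd3e, Cd3d, Cd8a, Cd8b1 and Trac, the markers of CD8 T cells, summed to 2350 to 2936 CPM (counts scaled to one total in every library) in repeat and to 2986 to 3203 CPM in single peptide libraries. Of the myeloid and dendritic markers, 5 of 9 (Csf1r, Adgre1, Clec9a, Siglech and Csf3r) had no count in any library, while Cd14 was at 1.22 to 2.99 CPM in repeat and at most 0.0434 CPM in single libraries, Lyz2 reached 4.42 CPM in single and 0.0349 CPM in repeat libraries, and Cd68 lay at 1.09 to 3.25 and 0.613 to 2.11 CPM. Repeat peptide libraries held 11863 ± 81.6 genes with at least 10 scaled counts and single peptide libraries 11466 ± 101 (SD, n = 4 and 5; exact two-sided permutation test, p = 0.00794, the smallest that 4 against 5 allows). Cytosolic ribosomal protein genes took 8.57 ± 1.14% of counts after repeat and 11.9 ± 2.49% after single peptide (exact p = 0.0556), and mitochondrially encoded genes 1.67 ± 0.35% and 1.45 ± 0.40% (exact p = 0.397). In bulk RNA, fewer cells of a type and less RNA of a gene in each cell cannot be told apart.

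In the rest of the text, a normalized count is a gene's expected count scaled for library size and composition, and library values are listed in the order A, B, C, D for repeat and A, B, C, D, F for single peptide. A gene was called, and is said to have risen or fallen in repeat peptide cells, when edgeR's quasi-likelihood test gave a Benjamini-Hochberg adjusted p under 0.05, the mean normalized count was at least 50 and the absolute log2 fold change was above 0.2. The value after ± is the standard error (SE) for a log2 fold change and the standard deviation (SD) for a mean.

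Repeat stimulation changed a large part of the transcriptome. Of 12255 genes tested, 5765 were called, which is 47% of those tested, and 7209 had an unadjusted p under 0.05. The calls were split between 2799 genes that rose (22.8% of those tested) and 2966 that fell (24.2%), and the median log2 fold change of all tested genes was -0.00. Counts given for gene lists are to be read against the 47% called, 22.8% rising and 24.2% falling over all genes. Large changes leaned upward, since 1142 genes rose and 852 fell by more than 1 on the log2 scale (together 16.3% of those tested), 197 rose and 97 fell by more than 3, and 64 rose and 31 fell by more than 5. The 4 repeat libraries all lay above or all lay below the 5 single libraries for 5076 tested genes (41.4%). Within the experiments, 5490 of the called genes (95.2%) moved in the same direction in all of A, B, C and D. The calls came from these same libraries, so this share is partly set by the call and describes the called genes only.

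**Figure D1:**
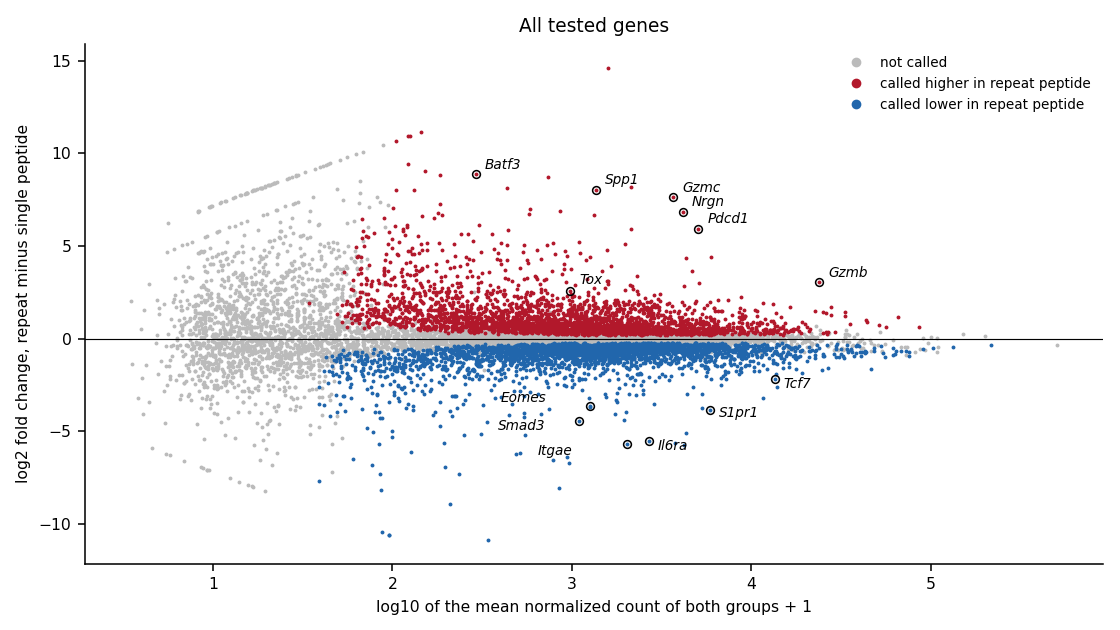
Each point is one tested gene, with the log10 of its mean normalized count on the x axis and its log2 fold change, repeat minus single peptide, on the y axis; red genes were called higher, blue genes called lower and grey genes not called, and 13 genes are labelled. The cloud is nearly symmetric about 0 (2799 red, 2966 blue), and of the labelled genes Batf3, Spp1 and Gzmc lie highest and Itgae, Il6ra and Smad3 lowest.

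Among genes with at least 50 normalized counts in each group, the largest rise was that of Nrgn (neurogranin, a calmodulin-binding protein), with 7344, 10035, 7992 and 7448 normalized counts in repeat and 86.6, 57.3, 90.5, 88.9 and 33.2 in single peptide libraries (log2 fold change 6.84 ± 0.30, adjusted p = 1.64e-11). It was followed by Pdcd1, by Serpine2, a protease inhibitor (5.91), by Spry2, an inhibitor of RAS signalling (5.20), and by Nrp1, a co-receptor for semaphorins and VEGF (5.10). Cdkn1a, Myh10, Tnfrsf4, Bcl2a1b, Zbtb32, Klrc1 and Rgs16 completed the 12 largest, at log2 fold changes of 4.41 to 4.76. The largest falls were those of Gm45837 (-5.72), of Itgae (-5.65), of Nsg2 (-5.61), an endosomal protein best known from neurons, and of Il6ra (-5.49). Gm14085, Smad3, Nod1, Rapgef4, Pou6f1, Igfbp4, Atp1b1 and Klf3 followed, between -5.07 and -3.93. For all 24 of these genes the 4 repeat libraries and the 5 single libraries did not overlap.

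Most inhibitory receptors rose. Of 15 tested receptors 10 rose and 3 fell, a share called of 86.7% against 47% over all genes, and the median log2 fold change of the list was 1.42. Pdcd1, which encodes PD-1, counted 8082, 10986, 8439.8 and 12292 in the repeat libraries and 197, 137, 135, 187 and 148 in the single libraries (log2 fold change 5.95 ± 0.20, adjusted p = 7.33e-13) or 61.6-fold. Lag3, whose product binds MHC class II, had 8111, 7536, 9318 and 7812 counts against 359, 378, 501, 255 and 530.4 (log2 fold change 4.34 ± 0.22, adjusted p = 9.7e-11). Tigit, a receptor for PVR and nectins, had 2960.2, 3383, 3365 and 2602 against 180.1, 202, 186, 157 and 293 (log2 fold change 3.92 ± 0.30, adjusted p = 7.8e-09). For each of these genes every repeat library lay far above every single library.

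Havcr2 (TIM-3) rose from a level close to nothing, with 179, 329.7, 159 and 273 normalized counts in repeat libraries and 12.5, 1.08, 0, 15.7 and 12.8 in single libraries (log2 fold change 4.76 ± 0.78, adjusted p = 5.63e-05). Cd244a (2B4) had 427, 784, 238 and 196 against 19.4, 44.4, 14, 32.4 and 29.4 (3.86 ± 0.58), and its repeat libraries A and B stood above C and D. Cd200r1 and Cd101 also rose, by 3.66 and 2.40 on the log2 scale. Smaller rises were those of Cd160, 2303 ± 452 against 861 ± 115 counts, and of Ctla4, 5520.5 ± 949.6 against 2552 ± 774 (SD, n = 4 and 5; log2 fold changes 1.42 ± 0.19 and 1.11 ± 0.18). Ctla4 was already present after single stimulation, most of all in library B, at 2312, 3893, 2467, 1954 and 2132 counts. Cd96, which shares ligands with TIGIT, rose by only 0.40 on the log2 scale, with overlapping groups.

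The inhibitory receptors that fell were Vsir, Btla and Lair1. Vsir, which encodes VISTA, a receptor of resting T cells, had 3756, 4390.3, 3562 and 3079 counts in repeat and 8535, 9152, 8718, 8809 and 8429.9 in single libraries (log2 fold change -1.24 ± 0.12, adjusted p = 1.9e-07). Lair1, a collagen receptor, had 36.1, 38.5, 37.4 and 72.6 against 498, 323, 539, 536 and 401 (log2 fold change -3.32 ± 0.30, adjusted p = 8.23e-08), with repeat library D the highest of its group and all 5 single libraries above it. Btla, whose ligand is HVEM, fell by 0.76 on the log2 scale (1965, 1717, 1457 and 1400.3 against 2865, 3112, 1828, 2129.8 and 3936, adjusted p = 0.00253), and its groups overlapped. Cd300a and Ceacam1 were near the limit of detection, at up to 25 and 30.8 counts in any library, and were not called, and Lilrb4a was not matched by symbol and was not tested.

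On a scale per transcript length, Pdcd1 was the most abundant inhibitory receptor after repeat stimulation, at a group mean of 258 TPM, the authors' values corrected for transcript length and library size, next to 212 for Tigit, 207 for Lag3, 147 for Ctla4, 137 for Cd96 and 113 for Cd160. After single stimulation the order was different, with Cd96 at 92.4, Vsir at 80.1 and Ctla4 at 61.7 TPM leading and Pdcd1 at 3.75 TPM. Havcr2 stayed low on this scale even after repeat stimulation, at 4.02 TPM.

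**Figure D2:**
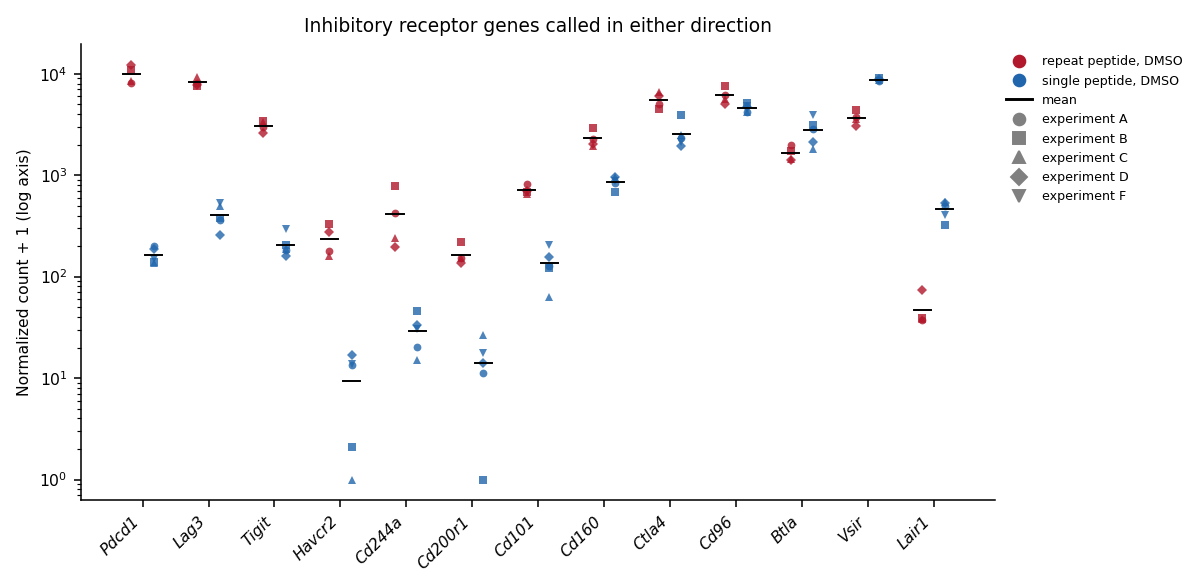
Normalized count plus 1 (log axis) of the 13 called inhibitory receptor genes in the 4 repeat (red) and 5 single peptide (blue) libraries, with a symbol for each experiment and a bar at each group mean. Pdcd1, Lag3, Tigit, Havcr2 and Cd244a show wide gaps between groups, Cd96 and Btla overlap, and Vsir and Lair1 lie lower in repeat peptide cells.

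Ligands of these receptors moved in both directions, with 3 of 7 rising and 2 falling (71.4% called). Pdcd1lg2, which encodes PD-L2, had 308, 349, 368 and 385 counts in repeat libraries and 5.70, 3.25, 21.7, 4.63 and 15.3 in single libraries (log2 fold change 5.16 ± 0.38, adjusted p = 7.04e-09), whereas Cd274, which encodes PD-L1, had 858, 642, 784 and 789 against 1443, 1144, 1209.5, 999.7 and 1242 (log2 fold change -0.65 ± 0.13, adjusted p = 0.000371). The ligands of PD-1 thus went in opposite directions in the same cells. Cd200, the ligand of CD200R, rose by 3.22 on the log2 scale and Tnfrsf14, which encodes HVEM, fell by 1.57. Pvr had the weakest call of the list (0.44 ± 0.16, adjusted p = 0.0304), and its single library F, at 419 counts, lay inside the repeat range of 284 to 472. It was no longer called without repeat library A, C or D or without single library A, B, C or D (adjusted p from 0.058 to 0.102, log2 fold changes from 0.37 to 0.42). Lgals3 and Lgals9, galectins that bind TIM-3 and other glycoproteins, did not pass, at log2 fold changes of -0.05 and -0.18.

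Costimulatory receptors moved in both directions, 5 of 14 rising and 6 falling (78.6% called). The largest rises were in members of the TNF receptor superfamily that antigen induces. Tnfrsf4 (OX40) had 1158, 1453, 2582 and 3296 counts in repeat against 82.1, 109, 105, 43.5 and 99.7 in single libraries (log2 fold change 4.60 ± 0.39, adjusted p = 2.82e-08) and Tnfrsf9 (4-1BB) had 6293, 5759, 10110.0 and 12622 against 701, 408, 1066, 667 and 580.2 (log2 fold change 3.67 ± 0.34, adjusted p = 1.18e-07). For both genes repeat libraries C and D were above A and B, and all were above every single library. Icos rose from 1255 ± 198 to 3479 ± 491 counts (1.47 ± 0.13), and Cd28 and Tnfrsf18 (GITR) rose by 0.87 and 0.82 on the log2 scale.

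Cd226, which competes with TIGIT for PVR and carries an activating signal, fell, with 711, 440.3, 277 and 166 counts in repeat and 1704, 1542, 1114, 1931 and 1446 in single libraries (log2 fold change -1.96 ± 0.29, adjusted p = 2.1e-05). Tigit rose and Cd226 fell in every one of experiments A to D. Slamf6, a marker of progenitor-like exhausted cells, fell by 1.20 (1302, 779, 1154 and 654 against 3157, 2104, 2040.5, 1929 and 1967), and Tnfrsf25 fell by 3.05 to 10.1 ± 9.95 counts, and without single library A its mean was under 50 and it was not called (log2 fold change -2.73, adjusted p = 0.000494), while without repeat library B the log2 fold change was -3.96. Cd27 fell by 0.32 and Slamf1 was not called. Tnfrsf8 (CD30) and Cd40lg had adjusted p under 0.05 and no overlap between groups, but their means of 18.1 against 0.766 and 22.1 against 1.93 counts were too low for a call.

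Transcription factors that act downstream of the antigen receptor or that mark exhaustion mostly rose, 20 of 30 rising and 5 falling (83.3% called), with a median log2 fold change of 1.06. The NR4A nuclear receptors, which are induced by calcium and NFAT signalling, rose together. Nr4a2 had 2088, 2241, 2504 and 2220.0 counts in repeat and 136, 104, 138, 89.8 and 120.1 in single libraries (log2 fold change 4.27 ± 0.17, adjusted p = 5.12e-12). Nr4a3 had 2564, 1763, 3110.3 and 3428 against 293, 174, 277, 154 and 199 (log2 fold change 3.63 ± 0.24, adjusted p = 1.46e-09), and Nr4a1 had means of 1624 ± 518 and 142 ± 33.5 (SD, n = 4 and 5; 3.52 ± 0.33, adjusted p = 1.13e-07). No repeat library overlapped a single library for any of them.

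Tox, the factor that sets up the chromatin state of exhausted cells, had 1901, 1877, 1697 and 1232 counts in repeat libraries and 270.2, 326, 273, 254 and 284 in single libraries (log2 fold change 2.58 ± 0.18, adjusted p = 2.77e-09) or 5.96-fold. Irf4, whose amount follows the strength of the TCR signal, had 5012, 4017, 5498 and 6244 against 1154, 1101, 874, 869 and 845 (log2 fold change 2.42 ± 0.19, adjusted p = 1.46e-08). Egr2 and Egr3, which curb TCR responses, rose by 2.44 and 3.24, and Prdm1, which encodes BLIMP-1, rose by 2.55 ± 0.36 to 351 ± 46.7 counts. Egr1 had 2989, 2512, 3149 and 2835 counts against 516, 368, 2006, 753 and 400.0 (1.83 ± 0.45), and single library C, at 2006, stood above the other single libraries, and without it the change was log2 fold change 2.49, adjusted p = 3.14e-05. Nfatc1 rose by 0.60 ± 0.12, while Nfatc2, which is present before stimulation, fell by 0.47. Other members that rose were Bhlhe40 (3.01), a regulator of cytokine genes and mitochondria, Zeb2 (2.87), Rbpj (2.10), Hif1a (1.56), and Rel, Fosl2 and Nfkb1 by 1.00 or less. Ikzf2 (HELIOS) rose by 1.11 with repeat library A at 5709.9 counts, and was not called without it (log2 fold change 0.60, adjusted p = 0.0641). The rise of Id2 by 0.55 was not called without repeat library B (log2 fold change 0.44, adjusted p = 0.0672).

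Batf3 was close to absent after single stimulation, at 1.14, 1.08, 0, 1.85 and 1.28 counts, and reached 298, 378, 511 and 1124 after repeat stimulation (log2 fold change 8.86 ± 1.07, adjusted p = 2.2e-06). Its relative Batf, a partner of IRF4, differed by less than the spread between libraries, at 943 ± 199 against 888 ± 194 counts (log2 fold change 0.09 ± 0.19, adjusted p = 0.724). The AP-1 gene Jun fell, with 998, 897, 1900.3 and 1128 counts in repeat against 5571, 4395, 10543, 4450.4 and 3592 in single libraries (log2 fold change -2.21 ± 0.32, adjusted p = 1.84e-05). Fos was dominated by single library C, at 1903 counts against 10.8 to 60.2 in the other single libraries and 71.1 to 556 in repeat libraries, and its log2 fold change turned from -0.85 ± 1.71 to 2.93 (adjusted p = 0.133) without that library. Junb shared this library pattern (2943, 3323, 8066, 3815 and 3189 in single libraries) and gained a call only without library C (0.40, adjusted p = 0.335 with it; log2 fold change 0.76, adjusted p = 0.0439 without it).

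The T-box factors parted. Eomes had 97.7, 369, 112 and 173 counts in repeat libraries and 2512, 1556, 1879, 2889 and 2848 in single libraries (log2 fold change -3.63 ± 0.49, adjusted p = 6.87e-06), whereas Tbx21, which encodes T-bet, had 2101, 2518, 1722 and 2141 against 1674, 1797, 1309, 1149.6 and 2127 and was not called (log2 fold change 0.40 ± 0.20, adjusted p = 0.109). Tbx21 was higher in the repeat library of all of A to D, and with the experiment as a block it passed (log2 fold change 0.52, adjusted p = 0.000638). Maf fell to 9.74 ± 9.21 counts from 148 ± 98 (-3.94 ± 0.74, and -4.83 without repeat library D). Myc fell as well, by 0.57, and Runx3 was not called (-0.30), except with the block (log2 fold change -0.27, adjusted p = 0.0132). Tox2 did not pass the filter on low counts.

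Factors of naive, stem-like and memory cells moved the other way, with 9 of 15 falling and 1 rising (median -0.50). Tcf7, which encodes TCF1, had 7119.6, 4303, 4793 and 3485 counts in repeat and 25151, 22862, 22019, 21746 and 18346 in single libraries (log2 fold change -2.16 ± 0.21, adjusted p = 2.13e-07), and its group mean went from 409 to 104 TPM. Lef1, its paralog, had 2428, 2753, 3386 and 2592 against 7543, 9312, 9756, 7319.8 and 6991 (log2 fold change -1.55 ± 0.14, adjusted p = 6.86e-08). Klf2, which drives homing receptor genes, fell by 2.98 (871, 1849, 1067 and 994 against 10077, 11506, 7734, 9012 and 8827), and Klf3 by 3.93. Foxo1, which controls Klf2 and Il7r, fell by 1.34, and Foxp1, Zeb1, Satb1 and Ets1 fell by less than 1. Ets1 was not called without repeat library B or D or single library A or C (adjusted p from 0.0515 to 0.104). Id3 was not called (1329.8 ± 205 against 1398 ± 144 counts, log2 fold change -0.07 ± 0.13, adjusted p = 0.66), nor were Bach2 (0.11), Bcl6 (0.45) and Ikzf1 (-0.17). Myb was not called without a block (0.34) and was called with it (log2 fold change 0.59, adjusted p = 0.0296). The exception that rose was Hhex, from 0, 7.57, 0, 19.4 and 2.56 to 167, 274, 133 and 188 counts (log2 fold change 4.88 ± 0.60, adjusted p = 3.05e-06), or a log2 fold change of 6.11 without single library D.

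**Figure D3:**
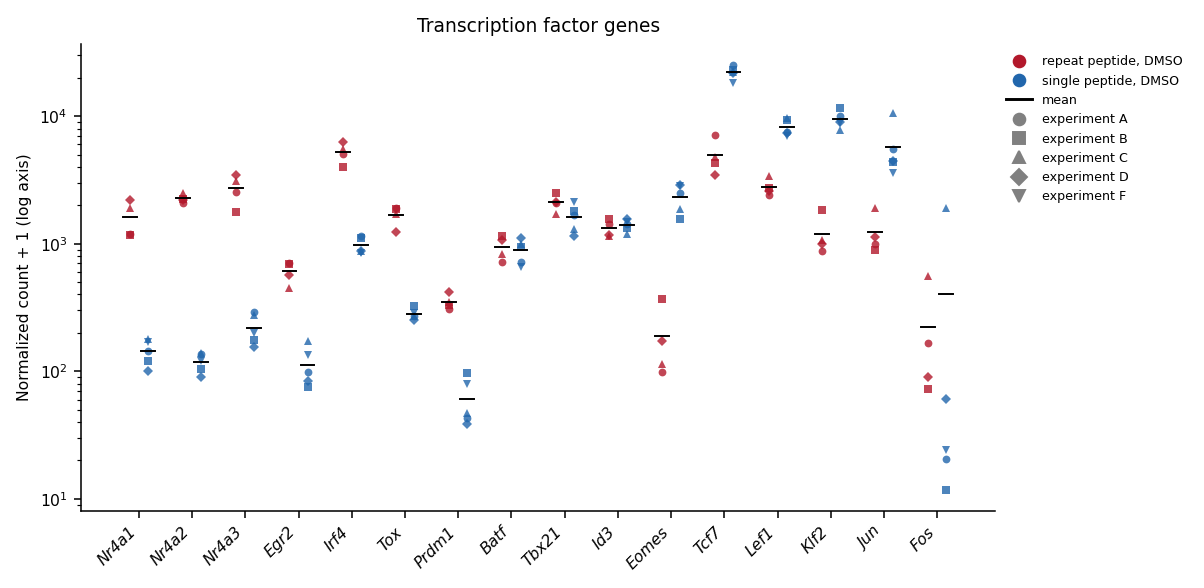
Normalized count plus 1 (log axis) of 16 transcription factor genes in the repeat (red) and single peptide (blue) libraries, with a symbol for each experiment and a bar at each group mean. Nr4a1 to Prdm1 lie higher and Eomes, Tcf7, Lef1, Klf2 and Jun lower in repeat peptide cells, Batf, Tbx21 and Id3 overlap, and one Fos library of the single peptide group, from experiment C, stands at 1903.

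Genes for lymph node homing and for exit from tissue fell, 6 of 8 with 1 rise (median -1.25). S1pr1, the receptor that lets T cells leave tissue along sphingosine 1-phosphate, had 742, 1227, 669 and 435 counts in repeat and 10450.0, 11700.0, 10525, 11876 and 10122 in single libraries (log2 fold change -3.83 ± 0.25, adjusted p = 1.82e-09). Ccr7, the receptor for lymph node chemokines, had 3302, 2832, 5819.9 and 5405 against 10409, 10528, 12854, 11960.0 and 8082 (log2 fold change -1.31 ± 0.20, adjusted p = 3.01e-05). Itgb7, S1pr4 and Cxcr4 fell by 1.84, 1.19 and 0.95, and none of these 5 genes had overlapping groups. Gpr183, a receptor for oxysterols that guides cells inside lymphoid tissue, rose by 2.13 ± 0.17. Cd69, an early activation antigen that holds S1PR1 back, had 2234 counts in single library C and 334 to 850 in the others and was not called (0.67, adjusted p = 0.357), except with the block (log2 fold change 0.87, adjusted p = 0.0326), and it was not called with the block in A to D alone (adjusted p = 0.082). S1pr5 did not pass the filter.

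Chemokine receptors of inflamed tissue did not move as a group (3 of 8 rose and 2 fell), and the median of the list was 0.96, 1.34, -0.33 and -1.19 in experiments A, B, C and D. Cxcr6, which marks tissue-resident cells, rose by 1.15 ± 0.25 (6084, 8068, 4106 and 4315 against 2596, 2382, 1634, 3005 and 3056 counts), and Ccrl2 and Ccr4 rose from low levels by 4.77 (5.54 without single library C) and 3.23. Cxcr3, a receptor for interferon-induced chemokines, fell from 3672, 3293, 2442, 3309 and 5457 to 1086, 1954, 508 and 376 counts (log2 fold change -1.89 ± 0.39, adjusted p = 0.000554). Repeat libraries C and D were the lowest for Cxcr3 and for Ccr2 (1363, 1758, 399.8 and 411), and Ccr2 was not called. Cxcr5 fell by 3.71 with single library F at 613 counts and by 2.85 without it. Ccr1, Ccr3 and Ccr8 did not pass the filter and Cx3cr1 was not called.

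Most genes of the TCR signalling chain itself fell, 17 of 24 of the proximal pathway, and 3 rose (median -0.47). Cd8b1, the β chain of the co-receptor, had 7623, 10065, 8063 and 7338 counts in repeat and 22967, 22936, 25996, 28025 and 20128 in single libraries (log2 fold change -1.54 ± 0.14, adjusted p = 5.48e-08), a larger fall than that of Cd8a (-0.32). Txk, a TEC family kinase, fell by 2.99 and Grap2, the adaptor GADS, by 1.77 (4197, 3994, 3500.3 and 4201 against 13479, 15296, 12425, 12429 and 14051). Cd247, the CD3 ζ chain, Tec, Plcg1, Rasgrp1, Ptprc (CD45), Lat and Prkcq fell by 0.69 to 1.15. Cd3g was an exception, with 15219, 18176, 16137 and 16924 counts against 8912, 9066, 11216, 13552 and 9386 (log2 fold change 0.67 ± 0.16, adjusted p = 0.00217), as was Lcp2, the adaptor SLP-76 (0.51 ± 0.08). Cd3d, Zap70, Bcl10 and Malt1 were not called without a block, and Malt1 was called with it (log2 fold change 0.43, adjusted p = 0.0035).

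Among the rises, that of Cd3e was close to the threshold. Its change was small (log2 fold change 0.23 ± 0.09, adjusted p = 0.0443), and it was not called without repeat library A, B or C or without single library A, B or D (adjusted p from 0.0725 to 0.135).

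Feedback inhibitors of the TCR and RAS pathways rose in 16 of 34 cases and fell in 4 (58.8% called, median 0.44). Spry2, a Sprouty protein that blocks RAS activation, had 2386, 2039.7, 2108 and 1995 counts in repeat and 25.1, 64.9, 95.6, 54.6 and 51.1 in single libraries (log2 fold change 5.20 ± 0.26, adjusted p = 6.2e-11). Dusp4, a phosphatase of nuclear ERK, had 1213, 707, 1912 and 2302 against 25.1, 44.4, 51, 5.55 and 89.5 (log2 fold change 5.18 ± 0.56, adjusted p = 5.97e-07), and Rgs16, which shortens signals of G protein-coupled receptors, 1671, 1869, 2569 and 3536 against 156, 47.6, 152, 127 and 83.1 (log2 fold change 4.41 ± 0.33, adjusted p = 6.62e-09). Dusp6, Dusp5 and Dusp2 rose by 2.26, 1.65 and 0.92, Spred1 and Spry1 by 2.11 and 1.94, and Nab2, a corepressor of EGR proteins, by 1.86. Cblb, a ubiquitin ligase that limits activation without CD28, rose from 5302 ± 1158 to 11791 ± 1235 counts (1.15 ± 0.16), and Ptpn6 (SHP-1), Ubash3b, Rgs1, Dgkz, Cd5 and Sh2d2a rose too. Among the falls were Dgka, which removes the lipid that activates RASGRP1 (-0.98 ± 0.11), and Pag1, a membrane anchor for the inhibitory kinase CSK (-1.83 ± 0.20). Dusp1 and Nfkbia had their highest value in single library C (1741 and 5071 counts) and were not called, except Nfkbia with the block (log2 fold change -0.45, adjusted p = 0.0187).

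Cytokine genes rose in 9 of 14 tested cases and fell in 2 (median 1.38). Spp1, osteopontin, had 1694, 2208, 3862 and 3059 counts in repeat and 0, 27, 21.7, 0 and 3.83 in single libraries (log2 fold change 8.03 ± 0.68, adjusted p = 3.39e-08; 8.84 without single library B), and Csf1, which supports macrophages, had 2236, 2578, 2752 and 3011 against 5.70, 23.8, 42.1, 25 and 32 (log2 fold change 6.69 ± 0.42, adjusted p = 9.72e-10). Ifng had 429, 530.1, 892 and 1174 against 91.2, 5.41, 52.3, 30.5 and 51.1 (log2 fold change 4.04 ± 0.55, adjusted p = 7.93e-06), with no overlap. Tnf, by contrast, had 344, 541, 369 and 639 against 364, 294, 494, 457 and 309 and was not called (log2 fold change 0.30 ± 0.20, adjusted p = 0.217), being higher in repeat than single peptide cells in 2 of the 4 experiments. Tnfsf11 (RANKL), Tnfsf4 (OX40L), Tnfsf9, Tnfsf14 and Tgfb1 rose, by 4.25, 4.44, 1.56, 1.19 and 0.85. Without single library A the log2 fold change of Tnfsf4 was 5.45 and that of Csf2 4.36. Csf2 (GM-CSF) rose to 72.1, 133, 103 and 355 counts, but its mean over all libraries was near 50 and it was not called without repeat library B, C or D (log2 fold changes of 3.04 to 3.89). The lymphotoxin gene Ltb and Tnfsf8 fell, by 1.33 and 0.98. Il2, Il3, Il4, Il5, Il10, Il13 and Il21 did not pass the filter on low counts.

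Ccl3, Ccl4 and Xcl1, chemokines released by activated CD8+ T cells, rose by 3.05 ± 0.37, 2.77 ± 0.38 and 2.72 ± 0.47, with means of 551 against 66.6, 403 against 58.8 and 2652 against 401 counts. Ccl5, which memory and effector cells store, was lower (596, 1695, 708 and 701 against 1579, 2994, 2284, 1859 and 1749.6, log2 fold change -1.18 ± 0.42, adjusted p = 0.0232), with repeat library B inside the single range. That call was lost without repeat library A, C or D (log2 fold change -1.02, adjusted p = 0.0728; log2 fold change -1.07, adjusted p = 0.068; log2 fold change -1.07, adjusted p = 0.0704) and without single library B (log2 fold change -1.01, adjusted p = 0.0623). Ccl1, Ccl9 and Cxcl10 were not called, and Ccl17, Ccl22, Cxcl9 and Cxcl16 did not pass the filter.

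Of 18 tested genes of the cytotoxic programme 8 rose and 3 fell (61.1% called, median 1.47). Gzmb, granzyme B, had 30573, 31376, 47250.0 and 60861 counts in repeat and 4665, 3745, 6139, 4661 and 6722 in single libraries (log2 fold change 3.04 ± 0.26, adjusted p = 4.28e-08), and its mean TPM was 1645 against 179. Prf1, perforin, had 1554, 1419, 3307 and 3152 against 355, 234, 324, 387 and 863 (log2 fold change 2.45 ± 0.33, adjusted p = 6.66e-06). Gzmc went from almost none to one of the more abundant transcripts, at 14.8, 30.3, 58.6, 40.7 and 39.6 counts after single and 5228, 5848, 7444 and 10626 after repeat stimulation (log2 fold change 7.63 ± 0.47, adjusted p = 9.72e-10; 523 against 2.27 TPM). For all of these genes repeat libraries C and D were the highest.

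The neighbouring granzymes Gzmd, Gzme and Gzmf had no count in any single peptide library. In repeat libraries A to D Gzmd had 41.9, 154, 119.8 and 227, Gzme 14, 113, 82.4 and 144 and Gzmf 1.16, 30.6, 23.2 and 31 normalized counts, which against a floor of 3 counts over the single peptide group is at least 201-fold, 131-fold and 31.9-fold higher. None of them was called, because their mean over all 18 libraries was under 50. Granzymes C to G are near copies of each other, so the split of reads among them by the authors' counting is uncertain. Gzmm fell by 3.19 from 105 ± 41.4 counts, its mean being under 50 and its call lost without single library D (log2 fold change -2.94, adjusted p = 9.46e-05), and Gzma and Nkg7 were not called (0.25 and -0.00). The serpin genes Serpinb6a, Serpinb6b and Serpinb9 rose by 2.61, 2.19 and 1.12, of which Serpinb9 encodes an inhibitor of granzyme B that protects a killer cell from its own granules. The granule release genes Stx11 and Rab27a rose by 1.82 and 0.84, while Unc13d, which primes granules for release, fell by 0.35. Lamp1 fell by 0.27 and was not called without repeat library D (log2 fold change -0.20, adjusted p = 0.0866). Srgn, the granule proteoglycan, was called with the block (log2 fold change 0.37, adjusted p = 0.000987) and not without it (adjusted p = 0.0532). Gzmg and Gzmk did not pass the filter.

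The promoters of Gzmc and Gzmf are shown because they hold the palindrome TGACGTCA, the cAMP response element that ATF, CREB and JUN dimers can bind. These 2 were the only granule genes with it among 16 of the list that had a promoter in RefSeq (12.5%). It was in 3.14% of the 9671 tested genes with a promoter, 3.13% of those that rose and 1.77% of all 27025 mouse genes with one. The 250 bases before the start were read on both strands. The promoters of Gzmd and Gzme did not hold it, and those of Gzmc and Gzmf are much alike around the match. Other motifs were read in every list and, apart from the E2F site below, are not reported here. Some of their shares lay under that of all tested genes. The sequences are from RefSeq on GRCm38.p6, run from a few bases upstream of the match to the transcription start, and carry the match in capitals; Gzmc is at chr14:56234658-56234757 and Gzmf at chr14:56211408-56211509, both on the minus strand.
Gzmc: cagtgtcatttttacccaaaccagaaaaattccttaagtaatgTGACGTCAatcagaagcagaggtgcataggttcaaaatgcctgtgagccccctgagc
Gzmf: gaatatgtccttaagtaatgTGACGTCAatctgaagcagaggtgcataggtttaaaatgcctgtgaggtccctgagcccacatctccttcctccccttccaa
The match is a description of these letters, not of binding.

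Killer cell lectin-like receptors, which NK cells and some CD8+ T cells use to read MHC class I and stress ligands, rose in 9 of 11 cases and fell in none, the highest median among the lists (2.27). Klrc1, which encodes the inhibitory receptor NKG2A, had 12039, 11571, 11045 and 10811 counts in repeat and 320.3, 783, 241, 528 and 763 in single libraries (log2 fold change 4.43 ± 0.34, adjusted p = 1.01e-08). Klrk1 (NKG2D) had 14931, 15396, 14660.0 and 12870.0 against 2859, 3213, 2563, 2526 and 3884 (log2 fold change 2.27 ± 0.15, adjusted p = 1.26e-09). Klrd1, the CD94 partner of NKG2 chains, rose by 1.07 ± 0.23, and Klra5, Klri2, Klrc2, Klre1 and Klra3 by 7.02, 4.29, 3.28, 3.19 and 1.80. Klrb1c rose by 1.79 with repeat library B at 516 counts, and was not called without it (log2 fold change 1.18, adjusted p = 0.0805). All 11 genes were higher in the repeat library of A, B and C, and 9 of 11 in D.

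These genes lie side by side. The run of 9 neighbouring tested genes that all rose at chr6:129342691-129784270 (GRCm38) held Clec12a, Gabarapl1, Klre1, Klrd1, Klrk1, Klrc2, Klrc1, Klri2 and Gm156, with a median log2 fold change of 3.28. Members of this family resemble each other in sequence, so how reads were divided among Klra and Klrc genes is uncertain. Of the NK cell markers, Ncr1 stayed at or under 0.0349 CPM in repeat and 1.06 CPM in single libraries, and the summed NK list (27.0 to 63.3 against 2.01 to 9.15 CPM) was made up mostly of Klrc2 and Klrb1c, which CD8+ T cells also express. Klrg1, Klrc3, Klri1, Klra1, Klra6 and Klra9 did not pass the filter.

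Cytokine receptors fell more often than they rose, 13 against 5 of 23 (78.3% called, median -0.46). Chains that share a cytokine did not always move together. For IL-2 and IL-15, Il2rb had 34656, 41017, 35909 and 35394 counts in repeat and 13155, 13432, 13617, 12730.0 and 14329 in single libraries (log2 fold change 1.45 ± 0.11, adjusted p = 1.19e-08) and Il2ra 13829, 10745, 15976 and 19296 against 5189, 7305, 6668, 5706 and 7548 (log2 fold change 1.21 ± 0.20, adjusted p = 6.96e-05), but the shared Il2rg and Il15ra fell by 0.51 and 0.91. Il12rb2, Il18r1 and Il18rap, receptors for cytokines that induce interferon γ, rose by 1.05, 0.68 and 0.84. The IL-6 receptor chain fell furthest, with Il6ra at 79.1, 167, 133 and 84.3 counts against 4142, 7124, 4264, 5250.1 and 5364 (log2 fold change -5.49 ± 0.31, adjusted p = 2.76e-10) and its signalling chain Il6st at 1324 ± 199.6 against 5320.3 ± 746 (-2.01 ± 0.15). Il4ra, Il10ra and Il27ra fell by 1.49, 1.41 and 1.14, the interferon receptor genes Ifngr2, Ifnar2 and Ifngr1 by 2.46, 1.06 and 0.46, and Tgfbr1 and Tgfbr2 by 0.75 and 0.71. Ifngr1 was not called without repeat library D (log2 fold change -0.35, adjusted p = 0.0607). Il7r, which marks memory precursors and is repressed by acute TCR signals, was not called (4035, 3759, 3663 and 3267 against 3761, 4362, 3558, 2808 and 3453, log2 fold change 0.04 ± 0.14, adjusted p = 0.838).

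Genes that damp or transmit cytokine signals changed by smaller amounts, 3 of 14 rising and 7 falling. Socs3, an inhibitor of IL-6 family signalling, fell from 3156 ± 841 to 495 ± 86.1 counts (log2 fold change -2.67 ± 0.28, adjusted p = 3.71e-07), and Socs1, Pim1 and Jak1 fell by 0.97 to 1.09. Cish, which STAT5 and TCR signals induce, rose by 1.20 ± 0.18, and Stat3 rose by 0.83.

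Ectoenzymes and receptors of the adenosine pathway were divided, 4 of 9 rising and 4 falling. Cd38, which consumes NAD, had 666, 449, 404 and 337 counts against 77.5, 66, 101, 80.5 and 79.2 (log2 fold change 2.52 ± 0.24, adjusted p = 1.33e-07), and Entpd1 (CD39), which breaks down extracellular ATP and marks terminally exhausted cells, 518, 499.6, 463 and 413 against 138, 188, 134, 75.9 and 206 (log2 fold change 1.68 ± 0.26, adjusted p = 3.26e-05). Enpp1 and the adenosine receptor gene Adora2a rose by 1.47 and 1.25. Nt5e (CD73), which completes the conversion to adenosine, fell by 1.24 (1623, 2378, 1758 and 1009 against 3762, 4872, 3997, 3307 and 4115), and Ada and Dpp4 fell by 1.64 and 1.01. Art2b, an ADP-ribosyltransferase on the T cell surface, changed most (-3.42 ± 0.37).

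Integrin genes fell most at Itgae (CD103), the αE chain of tissue-resident cells, with 74.4, 205, 15 and 25.6 counts in repeat and 4492, 5434, 1879, 3531 and 4547 in single libraries (log2 fold change -5.65 ± 0.73, adjusted p = 5.45e-06), and the log2 fold change was -6.76 without repeat library B. Itga6 and Itgb3 fell by 0.85 each, while Itgav, Itgb1 and Itgb2 rose by 1.43, 0.92 and 0.34. The list as a whole gave 3 rises and 3 falls in 14, a share called of 42.9%, under the 47% over all genes. Of 11 genes of the pathway of TGF-β, which drives Itgae, 5 fell and 2 rose (63.6% called). Smad3, a receptor-activated SMAD, had 123, 129, 56.2 and 82.2 counts against 2324, 1819.5, 2098, 2001 and 2178 (log2 fold change -4.42 ± 0.30, adjusted p = 2.68e-09), and Smad7, Acvr1b, Smad4 and Tgif1 fell by 1.55, 1.35, 0.82 and 0.59. Ltbp3, which binds latent TGF-β, rose from 0, 2.16, 7.65, 0 and 2.56 to 338, 191, 603 and 328 counts (7.24 ± 0.66, and 8.22 without single library C), and Bmpr2 rose by 1.58.

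Death and survival genes changed within each class, 11 of 22 rising and 7 falling (81.8% called). The antiapoptotic Bcl2a1b and Bcl2a1d, NF-κB targets, rose by 4.57 ± 0.38 and 5.05 ± 0.49 to 1551 ± 143 and 1052 ± 47 counts, although they are near copies of each other and reads may be shared between them. Bcl2 and Mcl1 fell by 0.68 and 0.56, and Bcl2l1 rose by 0.76. On the killing side, Bmf, Bak1 and Pmaip1 rose by 1.40, 0.69 and 0.39 (Bmf was not called with effective length offsets, log2 fold change 0.70, adjusted p = 0.147), whereas Bbc3 (PUMA) fell by 1.02. The death ligands Fasl and Tnfsf10 (TRAIL) rose by 1.85 ± 0.34 and 1.45 ± 0.16, while the receptor Fas fell by 1.02. Bcl2l11 (BIM) was not called without the block (0.33) and was called with it (log2 fold change 0.29, adjusted p = 0.0271).

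Repeat peptide cells had more transcript of nearly every gene for DNA replication and mitosis, 28 of 30 rising and 2 falling (median 1.37), and the same 28 were higher in the repeat library of every experiment. Mki67, a marker of dividing cells, had 47181, 39957, 40937 and 42595 counts in repeat and 14592, 9858, 16938, 15539 and 7516 in single libraries (log2 fold change 1.73 ± 0.26, adjusted p = 2.94e-05). Ccnb1, the mitotic cyclin, had 4559.5, 4330.1, 4456 and 4432 against 963, 732, 1300.0, 1644 and 769 (log2 fold change 2.04 ± 0.23, adjusted p = 1.33e-06). Aurka and Bub1 rose by 2.02 and 1.97, the replication licensing genes Mcm2 to Mcm7 by 0.78 to 1.34, and Cdc6 by 1.81. Among single libraries C and D tended to be high and B and F low (F the lowest for Mki67, at 7516), so that the single peptide group spread more than the repeat group. The exceptions were the D-type cyclins Ccnd2 and Ccnd3, which act earlier in the cycle and fell by 0.51 and 0.33. The fall of Ccnd3 was not called without repeat library A (log2 fold change -0.28, adjusted p = 0.0625).

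An inhibitor of the cycle rose next to these genes. Cdkn1a (p21) had 1514, 2083, 3511 and 5018 counts in repeat and 176, 91.9, 140.2, 110.2 and 38.3 in single libraries (log2 fold change 4.76 ± 0.51, adjusted p = 5.25e-07), highest in repeat libraries C and D, while Cdkn1b (p27), which keeps cells quiescent, fell from 5668 ± 1032 to 2706 ± 287 counts (-1.07 ± 0.15). Cdkn2c rose weakly (log2 fold change 0.59 ± 0.22, adjusted p = 0.0321), and it was not called without repeat library B or C or without single library A, B or F (adjusted p from 0.0502 to 0.1). Cdkn2a, Cdkn2b and Cdkn2d were not called and Cdkn1c did not pass the filter.

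Promoters of Cdk1, Mcm5 and Mcm6 are shown because they hold TTTCGCG, a core of the E2F site through which replication genes are switched on at the start of S phase. Of 24 genes of the replication list with a RefSeq promoter these 3 had it (12.5%), next to 1.78% of tested genes, 2.51% of genes that rose and 0.814% of all genes with a promoter, again over both strands of the same window. All 3 genes rose, by 1.81, 1.34 and 0.96 on the log2 scale. The sequences run to the transcription start (RefSeq, GRCm38.p6), with the match in capitals: Cdk1 at chr10:69352913-69353063 (minus strand), Mcm5 at chr8:75109336-75109508 (plus strand) and Mcm6 at chr1:128359706-128359830 (minus strand).
Cdk1: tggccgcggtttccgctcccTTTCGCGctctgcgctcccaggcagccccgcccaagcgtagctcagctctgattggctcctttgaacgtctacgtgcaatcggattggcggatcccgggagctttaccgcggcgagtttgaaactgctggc
Mcm5: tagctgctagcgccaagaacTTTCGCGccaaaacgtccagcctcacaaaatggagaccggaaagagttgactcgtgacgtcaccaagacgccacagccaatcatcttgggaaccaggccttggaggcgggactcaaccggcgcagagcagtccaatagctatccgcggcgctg
Mcm6: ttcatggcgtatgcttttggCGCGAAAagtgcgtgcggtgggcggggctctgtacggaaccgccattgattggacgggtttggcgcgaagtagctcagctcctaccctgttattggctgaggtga
A gene without these letters may still hold a site with other letters or outside the window.

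Glycolysis and hypoxia response genes rose in 17 of 22 cases and fell in 1 (median 0.97). Slc16a3, the lactate exporter MCT4, had 1659, 1244, 3865 and 4561 counts in repeat and 255, 473, 373, 262 and 269.7 in single libraries (log2 fold change 3.12 ± 0.39, adjusted p = 3.49e-06), and Tpi1 had 12428, 12238, 22577 and 26764 against 3733, 5245, 5989, 5425 and 3564 (log2 fold change 1.95 ± 0.27, adjusted p = 9.08e-06). Gapdh, Pgk1, Ldha, Slc2a3 and Pgam1 rose by 1.05 to 1.51. In all of these genes repeat libraries C and D were above A and B. The difference was smaller within experiment B, where 12 of 22 genes were higher after repeat stimulation and the list median was 0.35, than within A, C and D, where 18, 19 and 20 were higher and the medians were 0.84, 1.01 and 1.22. Hk2 and Vegfa were lower in the repeat than in the single library of B, with differences of -0.60 and -1.40 in log2 CPM. The exception that fell was Pdk1, which holds pyruvate back from the mitochondrion (3123, 2397, 4101 and 3609.6 against 7532, 8349.8, 7262, 7794 and 7694, log2 fold change -1.22 ± 0.12, adjusted p = 2.57e-07).

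The nuclear genes of the respiratory chain changed little, 7 of 24 rising and 1 falling (median 0.22). The share called was 33.3%, under the 47% over all genes. The list median was 0.33 and 0.44 in experiments A and B and 0.03 and -0.01 in C and D. Ndufa4 and Cox5a rose by 1.36 ± 0.36 and 0.63 ± 0.13, and Ppargc1b, a coactivator of mitochondrial genes, fell from 589 ± 105 to 179 ± 8.00 counts (-1.72 ± 0.20). Without repeat library C only 4 of the genes rose. Ppargc1a did not pass the filter.

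Cholesterol synthesis rose almost throughout, 15 of 17 genes and none falling (median 1.17). Hmgcs1, an early step, had 9739, 5885, 9916 and 11476 counts in repeat and 1919, 3138, 2814, 3782 and 4718 in single libraries (log2 fold change 1.50 ± 0.31, adjusted p = 0.000468), and Cyp51 and Fdps both rose by 1.38. All 17 genes were higher in the repeat library of A, C and D and 15 in B, where the median was 0.58 against 1.02 to 1.57 in the others. Srebf2, the transcription factor of the pathway, rose by 0.54 ± 0.17, and Mvd was not called (0.25).

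Among genes of the unfolded protein and ATF4 responses 12 of 19 rose and 2 fell (median 0.73). Atf3 had 288, 256, 761 and 876 counts against 29.6, 2.16, 11.5, 6.48 and 20.4 (log2 fold change 5.29 ± 0.60, adjusted p = 1.19e-06), the asparagine synthetase gene Asns rose by 2.22 ± 0.26 and Atf4 by 0.77 ± 0.14. Chaperones of the endoplasmic reticulum rose less, Hspa5 by 0.70 and Hsp90b1 by 0.53. Trib3 and Ddit3, which respond to the same stress, did not follow, with Trib3 falling by 1.33 and Ddit3 not called (-0.21).

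**Figure D4:**
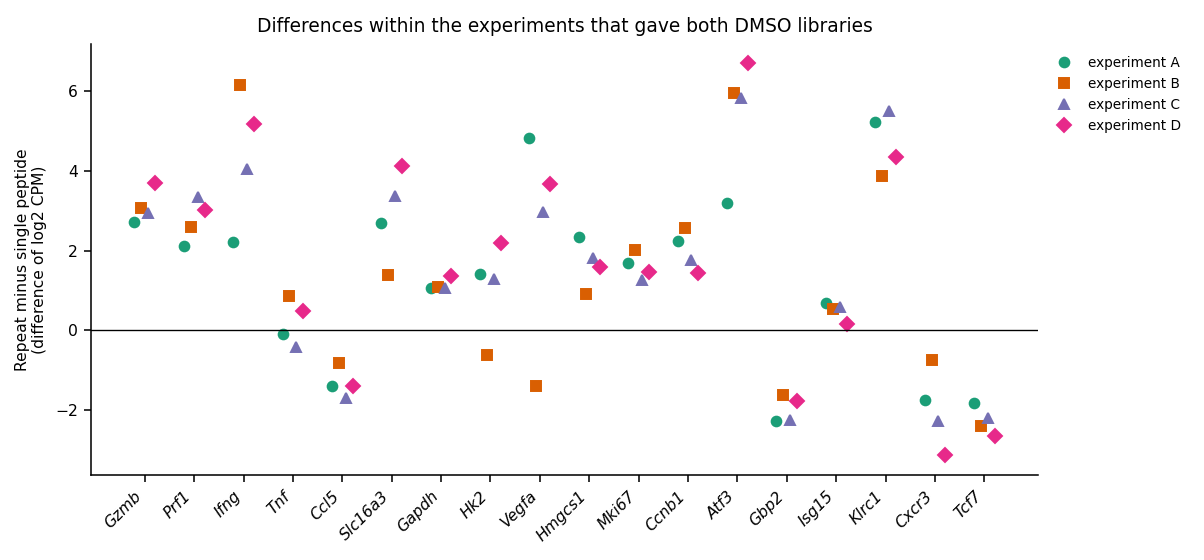
Difference of log2 CPM, repeat minus single peptide, within each of experiments A to D for 18 genes, with a line at 0. Gzmb, Slc16a3, Gapdh, Mki67, Klrc1 and Tcf7 lie on one side of 0 in all 4 experiments, whereas Tnf, Hk2 and Vegfa have points on both sides.

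Interferon-stimulated genes fell more often than they rose, 14 against 5 of 30 (median -0.43), and the falls were largest in the guanylate-binding and immunity-related GTPases that interferon γ induces. Gbp2 had 2786, 2445, 3417 and 3463 counts in repeat and 13457, 7480.1, 16161, 11871 and 7068 in single libraries (log2 fold change -1.89 ± 0.23, adjusted p = 2.63e-06), and Igtp had 6154, 4880.0, 6335 and 6555 against 22254, 14899, 20280.0, 18367 and 15747 (log2 fold change -1.61 ± 0.16, adjusted p = 2.33e-07). All 9 tested Gbp genes fell. Ifng rose and Ifngr2 fell in the same libraries. Genes more typical of type I interferon were mixed, with Mx1, Isg20 and Dhx58 rising by 1.54, 0.97 and 0.74, Irf9, Zbp1 and Rtp4 falling by 0.72, 0.99 and 1.03, and Irf7, Ifit1 and Oas3 not called. Ifit3, Ifit3b and Ifi35 had log2 fold changes of -0.94, -1.44 and -0.39, and the calls of all 3 were lost without repeat library B (adjusted p = 0.0733, 0.0549 and 0.068) and without single library D (0.0558, 0.0546 and 0.058). The calls of Ifit3 and Ifit3b were also lost without single library A, and that of Ifi35 without repeat library A or single library C. Ifih1 and Usp18 rose by 0.71 and 1.00 and were not called without repeat library C, their highest (log2 fold change 0.46, adjusted p = 0.122; log2 fold change 0.64, adjusted p = 0.207), which left 3 rising genes of 30. Usp18 was not called without repeat library A or D or single library A, B or C either (adjusted p from 0.0597 to 0.0911). Gbp genes are similar in sequence, and reads may have been shared among them.

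Antigen presentation genes of MHC class I fell, H2-K1 by 0.91 (46750.0, 50201, 54555 and 57680.0 against 92175, 94536, 104660.0, 99084 and 100880.0), H2-D1 by 0.65, Nlrc5, their transactivator, by 0.91, Tap2 by 0.41 and B2m by 0.40. Tap1, Psmb8 and Psmb9 were not called without a block, and Psmb8 was called with it (log2 fold change -0.21, adjusted p = 0.0461). In all 7 of 14 genes of the list fell and 2 rose. The rises were in MHC class II, with H2-Ab1 at 251, 208, 745 and 667 counts against 5.70, 11.9, 10.2, 12 and 6.39 (log2 fold change 5.63 ± 0.59, adjusted p = 4.36e-07) and Cd74, the invariant chain, at 254, 304, 477 and 644 against 99.2, 6.49, 115, 25 and 17.9 (log2 fold change 3.00 ± 0.80, adjusted p = 0.00409). Among markers of antigen-presenting cells, Cd14 moved with them (1.22 to 2.99 against at most 0.0434 CPM), and the myeloid and dendritic list summed to 2.94 to 5.80 CPM in repeat and 0.649 to 6.54 CPM in single libraries and the B cell list to 1.08 to 1.71 and 2.43 to 5.66 CPM. Other class II genes did not rise: H2-DMa fell by 1.63, and H2-Eb1 and H2-DMb1 were not called (0.03 and -0.17). H2-Aa and Ciita did not pass the filter, and the part of other cells in the class II counts was not tested.

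**Figure D5:**
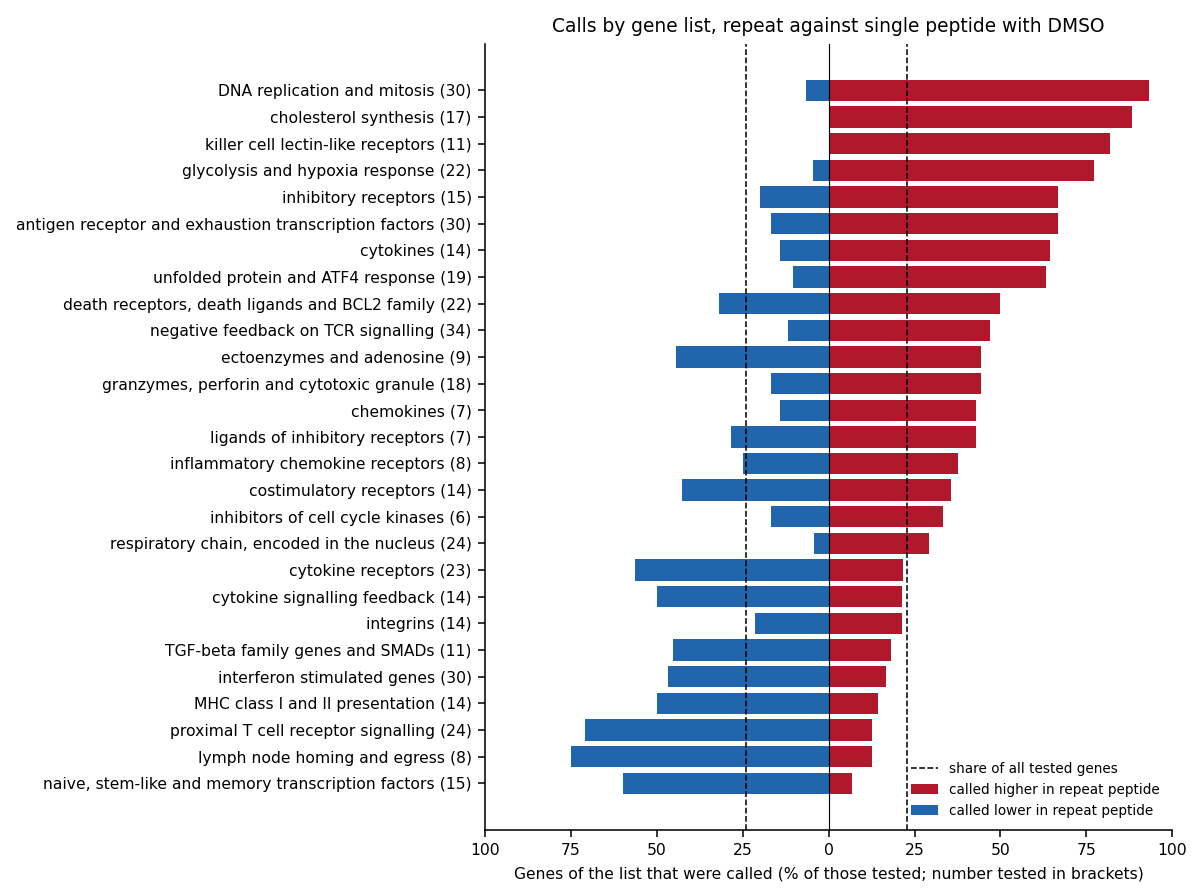
Share of the tested genes of each of 27 lists that rose (red, right) or fell (blue, left), in percent, with the number tested in brackets and dashed lines at 22.8% and 24.2%, the shares over all tested genes. Replication and cholesterol synthesis lie furthest to the right, and lymph node homing and proximal TCR signalling furthest to the left.

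Over the 27 lists, 460 of 491 genes were tested and 334 were called, 207 rising and 127 falling. That is 72.6% of the members tested, against 47% over all genes. The lists were chosen with earlier results of these data known, which favours a high share. Families defined by their symbols alone added further groups. Kinesins rose in 20 of 33 cases and fell in 5, centromere proteins in 16 and 1 of 21, and proteasome subunits in 17 and 3 of 48 (41.7% called, under the 47% over all genes). Of 87 cytosolic ribosomal protein genes 31 fell and none rose, a share called of 35.6%, and 83 had a log2 fold change below 0, with a median of -0.59. Zinc finger genes with Zfp symbols fell in 135 of 328 cases and rose in 37, and 14 of them formed an unbroken run of falling neighbours at chr13:67312998-67729173 (median -0.68); such genes are near copies, so reads may be shared among them.

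Some markers of other lymphocytes moved with the groups. The γδ T cell list was higher in single peptide libraries, 130 to 227 CPM against 63.6 to 94.6, nearly all of it Trdc, and the CD4 and regulatory list was higher in repeat libraries, 29.7 to 42.5 against 5.13 to 24.5. Zbtb7b made up nearly all of it in repeat libraries (29.4 to 42.4 CPM), whereas in single libraries, where it reached 8.22 CPM, Foxp3 held a large part. Cd4 was at or under 0.0761 CPM in every library, while Foxp3 was at 2.30 to 16.3 CPM in single and at most 0.245 CPM in repeat libraries. The part of other cells in any gene group above was not tested.

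The same contrast was available in the ibrutinib libraries, and the difference between both contrasts was tested as an interaction. The repeat minus single contrast differed between DMSO and ibrutinib for 154 of 12255 genes (1.26%), 26 with a higher and 128 with a lower value under DMSO, and 31 of them were members of the lists. The Gbp and immunity-related GTPase genes were among them: Gbp2 had a log2 fold change of -1.89 with DMSO and 0.93 with ibrutinib (difference -2.82 ± 0.32, adjusted p = 0.000186) and Igtp -1.61 and 0.37 (adjusted p = 0.000186). For Smad3 and Il6ra the fall was deeper with DMSO, -4.42 against -1.87 and -5.49 against -3.15 (adjusted p = 0.00131 and 0.00192). Ccl3, Ccl4 and Xcl1 rose less with DMSO than with ibrutinib, 3.05 against 7.84 for Ccl3 (adjusted p = 0.00192). Perforin went the other way, with Prf1 at 2.45 under DMSO and 0.54 under ibrutinib (adjusted p = 0.0419). For Pdcd1, Lag3 and Tox no difference between the contrasts was called (adjusted p = 0.099, 0.854 and 0.943), which does not show that the contrasts were alike. The 154 genes became 679 with the experiment as a block and 84 without repeat library C.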

How the data were processed

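RNA was sequenced from 18 mouse CD8+ T cell libraries in 4 groups, of which the 9 DMSO libraries are described. The authors trimmed paired reads (Trim Galore), aligned them and estimated counts per gene with RSEM 1.3.1 on GRCm38 with an Ensembl annotation. The deposited files hold expected counts, TPM and effective lengths for each library, and replicates were not pooled. For the tests each expected count was rounded, and only genes typed as protein-coding or lncRNA in GENCODE M21 were kept (98.33 to 98.63% of counts). TPM values, as the authors gave them, were used, as group means with no test, to order levels between genes and to give those of single genes.

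One model over all 18 libraries in 4 groups was fitted with edgeR 4.0.16 (TMM scaling, its default filter on low counts, robust quasi-likelihood F test, R 4.3.3). The thresholds of the study were used (adjusted p under 0.05, mean normalized count of at least 50, absolute log2 fold change above 0.2), and a difference between contrasts was tested as an interaction. Alternatives are listed in the closing section, with DESeq2 1.42.0 among them. In simulated counts for this comparison with 200 changed genes among 11664, 89.5% were recovered (80.2% at an absolute log2 fold change of 1 and 97.2% at 2) and 4 unchanged genes were called. The changed genes were drawn from well-expressed ones and no effect of the experiment was simulated. These figures therefore need not hold for the data, where 47% of tested genes were called.

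The members and gene lists were chosen with earlier results of these data known, so their counts are descriptions. Named genes were, for each list, up to 3 called genes in each direction with the largest change, the 12 largest changes in each direction over all genes, a set of standard exhaustion genes, and runs of called neighbours; other members were named for their role after their values had been seen, and some genes of the lists are not reported here. Libraries of 1 experiment deviated together (correlations of deviations from the group means of 0.208, 0.160, 0.169 and 0.273 for A to D, although repeat library B correlated as much with single library F, at 0.166), so the genotype tag pairs the libraries, and values with the experiment as a block are given where they change a call. The labels do not say whether libraries came from separate animals, so p-values measure the spread between cultures.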

Additional observations from a re-analysis of the deposited data

Results flagged for a closer look

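In some genes 1 library lay further from its group than the others allow by Dixon's test, which chance alone does in about 1 in 20 groups. Among repeat peptide libraries these were D for Lair1 (72.6 normalized counts), Maf (23.5) and Socs1 (1473), B for Ccl5 (1695) and Nod1 (315), and A for Gbp4 (3927). Among single peptide libraries they were A for Slamf6 (3157), Tnfsf4 (59.3) and Gbp4 (16941), B for Ppargc1b (773), Trib3 (739) and Ctla4 (3893), C for Jun (10543), D for Ndufa4 (1078), and F for Pvr (419), Cxcr5 (613) and Prf1 (863). The library named was the highest of its group in each case.

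The repeat minus single contrast differed between DMSO and ibrutinib in 23 of the 169 named genes, next to 154 of all 12255 tested (1.26%). Most named genes were picked for a large change with DMSO, which is a term of this difference, so their share is favoured by the choice. Given as the contrast with DMSO minus that with ibrutinib on the log2 scale, the receptors and ligands among the 23 were Tnfrsf14 (-0.79), Cd274 (-1.25), Icos (0.78), Il6ra (-2.34) and S1pr1 (-1.63). The transcription factors were Eomes (-2.56), Klf3 (-1.61), Smad3 (-2.55) and Pou6f1 (-2.84). Chemokines and effector genes were Ccl3 (-4.79), Ccl4 (-3.16), Xcl1 (-3.74) and Prf1 (1.91). Interferon-induced GTPases were Gbp2 (-2.82), Gbp4 (-1.56) and Igtp (-1.98). The rest were Itgb7 (-1.05), Txk (-1.42), Art2b (-2.51), Sesn2 (1.07), Gm45837 (-2.62), Nsg2 (-2.55) and Nod1 (-2.47).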

How the results depend on the processing

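The count of 5765 called genes was 5761 with DESeq2 size factors, 5260 without a filter on low counts, 6580 without the threshold on mean count, 5471 with effective length offsets, 5833 with all gene types, 5515 with the compared groups alone, 5839 with DESeq2, 6564 with the experiment as a replicate block (5698 of them shared), 5621 with the block in A to D alone and 5072 to 5840 without 1 library. With an absolute log2 fold change above 1 it was 1994, 1142 higher and 852 lower, so that 57.3% were higher against 48.6%. The paired fit with the block took no call from any list member and added 22, and the values of those named stand beside them in the report. With the block in A to D alone, Tnfrsf25, Cdkn2c, Cyc1, Hk2, Vegfa, Slc2a1 and Pfkl were among those no longer called, so that 13 rather than 17 glycolysis and hypoxia genes rose, and of the named genes gained with the block Cd69, Bcl2l11, Runx3 and Psmb8 were not called. Pvr, Cd3e, Usp18 and Cdkn2c were not called without the filter or with the compared groups alone, Ccl5 without the filter, Tnfrsf25 and Ifit3b with the compared groups alone, and Bmf, Cdkn2c and Vegfa with effective length offsets.

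The difference of the contrast between DMSO and ibrutinib was more sensitive. Its 154 genes (26 higher, 128 lower) were 679 with the block (134 and 545), 339 with DESeq2 (66 and 273), 159 with DESeq2 size factors and 84 to 168 without 1 library. Those called higher ranged from 9 to 22 and those called lower from 75 to 146 without 1 library, and the lowest totals came without repeat library C (84, with 9 higher and 75 lower), while without repeat library D 12 were higher. The cause was not tested.

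The share of counts in the 100 most abundant genes differed by -3.19 to -1.62 percentage points and that of ribosomal protein genes by -3.94 to -2.34 without 1 library, and both passed only without single library A (-3.19 and -3.94, exact permutation p = 0.0286 each). The 169 genes picked by size of change or as standard exhaustion genes had 3042 values under the alternatives other than the fold threshold. Of these values 2980 kept direction and call, 54 lost the call, 3 gained it, 5 without a call moved and 0 reversed. At least once, 11 of the 169 genes lost their call. Picking large changes favours stable calls. Members named only for their role are not counted here, and several of them lost a call, as stated beside them. Depth limits genes under about 50 counts, among them Gzmd to Gzmf, Tnfrsf8 and the interleukins.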
